A study of Mus musculus with 6 samples.

Results

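The nuclear-encoded genes of the mitochondrial respiratory chain and ATP synthase were examined in day 4 embryoid bodies (D4 EBs). Members were chosen by symbol: every listed gene whose name begins with *Nduf*, *Uqcr*, *Cox* followed by a digit from 4 to 8, or *Atp5*, together with *Sdha*, *Sdhb*, *Sdhc* and *Sdhd*. This gave 87 of the 15266 genes in the table, and all 87 were among the 12891 genes that passed the filter on low counts. By the complex in which their products act, 35 belonged to complex I, 7 were complex I assembly factors, 4 belonged to complex II, 8 to complex III, 15 to complex IV and 15 to complex V, and 3 were associated factors that are not subunits. *Ndufa4* and *Ndufa4l2* were counted with complex IV, in which the *Ndufa4* product is now placed.

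The libraries came from 2 edited lines of the W9.5 mouse embryonic stem cell line, each differentiated in suspension in serum-containing medium without LIF for 4 days. EVX1-Δfs, here clone 14, is compound heterozygous for frameshifts in the homeodomain exon of *Evx1*, so functional EVX1 is lost while *Evx1* and its antisense transcript *Evx1as* are still made. Del#3 carries a deletion of about 2.6 kb at the locus, which takes out the *Evx1as* promoters and with them *Evx1* expression, so functional EVX1 is lost in both lines and both RNAs are strongly reduced, though still detected, in Del#3. Each line gave 3 libraries, the same-numbered libraries of the lines were differentiated side by side, and each number was a different day. Unedited W9.5 EBs were not analysed here, each line was grown from picked clones, and an effect of the clone and of the edit cannot be told apart.

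Oxidative phosphorylation couples the oxidation of NADH and succinate to ATP synthesis across the inner mitochondrial membrane. Complex I takes electrons from NADH and complex II from succinate, complex III passes them through ubiquinol to cytochrome c, and complex IV hands them to oxygen, while complexes I, III and IV pump protons that drive the rotary ATP synthase, complex V. Most subunits are encoded in the nucleus and imported, and a small core is encoded in mitochondrial DNA. None of those mitochondrially encoded subunits was in the table, so they were not analysed here. Cells of the gastrulating embryo and pluripotent cells are known for a high use of glycolysis, with the respiratory genes nevertheless broadly expressed.

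Libraries held between 9024579 and 15699124 reads on listed genes, with the most in replicate 1 of each line (15699124 in EVX1-Δfs and 12231851 in Del#3). *Evx1*, whose shared promoter the deletion removes, ran from 2655 to 3671 normalized counts (reads divided by a size factor per library) in EVX1-Δfs and from 32.5 to 38.3 in Del#3, the direction the labels give. Below, values per library are normalized counts in the order replicate 1, 2, 3. The 8 markers of primitive streak and nascent mesoderm, which define the stage that D4 EBs model, were all listed, with summed values of 7958 to 9772 in EVX1-Δfs and 6605 to 9709 in Del#3. Of the other marker lists, pluripotent epiblast summed highest, to 17952 to 26108 in EVX1-Δfs and 16290 to 26918.5 in Del#3. In the same order of lines, definitive endoderm summed to 3615 to 4668 and 2887 to 4310, and haemangioblast to 3051 to 3403 and 2816 to 3849. Lower sums were those of visceral endoderm (135 to 186 and 146 to 356) and fibroblast (271 to 454 and 326 to 621). Heart and skeletal muscle summed to 310 to 429 and 308 to 461, and none of the 4 testis and sperm markers was listed. EBs are mixtures, and in bulk RNA fewer cells of a type and less RNA per cell cannot be told apart.

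The respiratory genes were expressed at high levels for their length. A level per length (RPKM, reads per kilobase of exon scaled to the reads on listed genes) could be computed for 84 members. Of these, 81 lay above the median of the genes tested (6.40), with 38 above the 95% point. The median level was 80.2 over the members. By complex the medians were 63.6 for complex I, 85.6 for complex II, 137 for complex III, 180 for complex IV and 172 for complex V, whereas the 4 assembly factors with a length had a median of 22.5. Per median coding transcript instead of the union of exons, they were 111, 133, 302, 197 and 332 for complexes I to V and 25.3 for the assembly factors, so the order of complexes III, IV and V depended on the length used. The highest level was that of *Cox4i1* (1344 ± 238 in EVX1-Δfs and 1328 ± 369 in Del#3, SD, n = 3), the main isoform of a regulatory subunit of cytochrome c oxidase. The lowest was that of *Atp5s* (1.19 ± 1.02 and 1.28 ± 0.65), an ATP synthase factor B gene that is not a subunit.

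**Figure D1:**
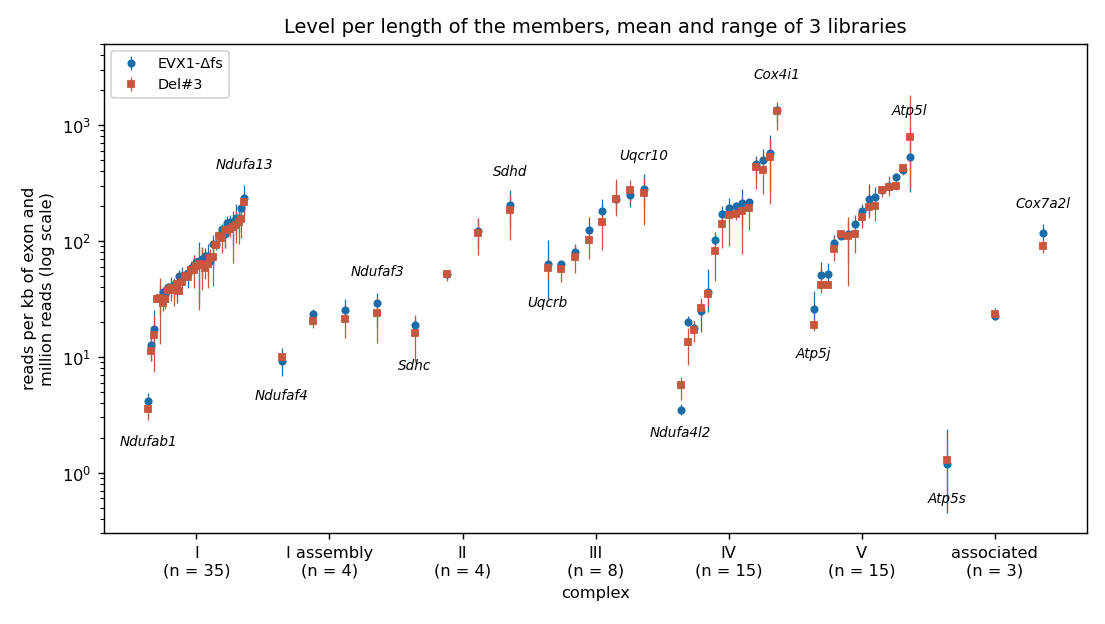
Level per length (RPKM, log scale) of the 84 members with an annotated length, by complex, each gene at its own position. Points are means of 3 libraries, circles for EVX1-Δfs and squares for Del#3, and bars run from the lowest to the highest library; the gene with the highest and the one with the lowest level of each complex are named, from *Atp5s* at 1.24 to *Cox4i1* at 1336 on average.

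Together the members made up 1.43, 1.45 and 1.65% of the reads on listed genes in EVX1-Δfs and 1.24, 1.62 and 1.41% in Del#3. The ranges of the lines overlapped, and the Del#3 share was lower than the EVX1-Δfs share in replicates 1 and 3 and higher in replicate 2. Complex V took the most (0.604 ± 0.048% in EVX1-Δfs and 0.586 ± 0.048% in Del#3, SD, n = 3), followed by complex I (0.362 ± 0.044% and 0.333 ± 0.055%) and complex IV (0.273 ± 0.049% and 0.248 ± 0.082%).

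The comparison of the lines asks whether losing *Evx1as* and *Evx1* RNA, beyond losing the protein, changes expression. No respiratory gene was called: 0 of 87 members passed an adjusted p of 0.05 in limma with Benjamini-Hochberg adjustment, against 0.0155% of all genes tested (2 genes, *Evx1* and *Evx1as*). Adding the replicate number as a block, limma again called 0 members, against 0.0233% of all genes. Before adjustment, 0 members were under 0.05 in limma without the block and 2 with it, *Ndufa1* and *Cox6c*, against 133 and 596 of the 12891 genes, and edgeR and DESeq2 called 0 members with or without the block. These counts do not show that the lines were equal: the SE of a member's log2 difference had a median of 0.30, and the 95% interval lay within a 2-fold difference in either direction for 58 of 87 members, or 84 with the block.

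More members had a lower than a higher mean in Del#3, but not in every pair. The median log2 difference (Del#3 minus EVX1-Δfs) was -0.20 over the members and 0.0022 over all genes, and 74 of 87 members had a negative value. Within the same-numbered pairs the member median was -0.42 in replicate 1, 0.23 in replicate 2 and -0.36 in replicate 3, with 79, 14 and 77 of 87 members lower in Del#3. The median of all genes stayed near 0 in each pair, at -0.018, 0.024 and 0.00090. Short genes in general had the order of the members, with pair medians of -0.27, 0.16 and -0.33 for the 108 genes whose coding transcript was up to 500 bases and -0.19, 0.14 and -0.24 for the 1374 from 500 to 1000 bases. Members of these lengths had -0.69, 0.26 and -0.46 (9 genes) and -0.43, 0.19 and -0.36 (47 genes), and the part of length in the line differences was not tested. Among the marker lists, the 3 fibroblast genes had pair medians opposite in sign to the members, 0.39, -0.52 and 0.71. Those of pluripotent epiblast were 0.30, -0.29 and -0.43, of definitive endoderm -0.33, -0.0082 and -0.15, of primitive streak and nascent mesoderm -0.20, -0.015 and -0.12, and of haemangioblast -0.15, 0.24 and 0.085. Those of visceral endoderm were 0.98, 0.13 and 0.11 and of heart and skeletal muscle 0.12, 0.19 and 0.25, and the part of these markers was not tested either. Replicate 2 thus went the opposite way to the other pairs for most members, and 61 of 87 were lower, higher and lower in Del#3 in replicates 1, 2 and 3, an order that 20.7% of all genes had.

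**Figure D2:**
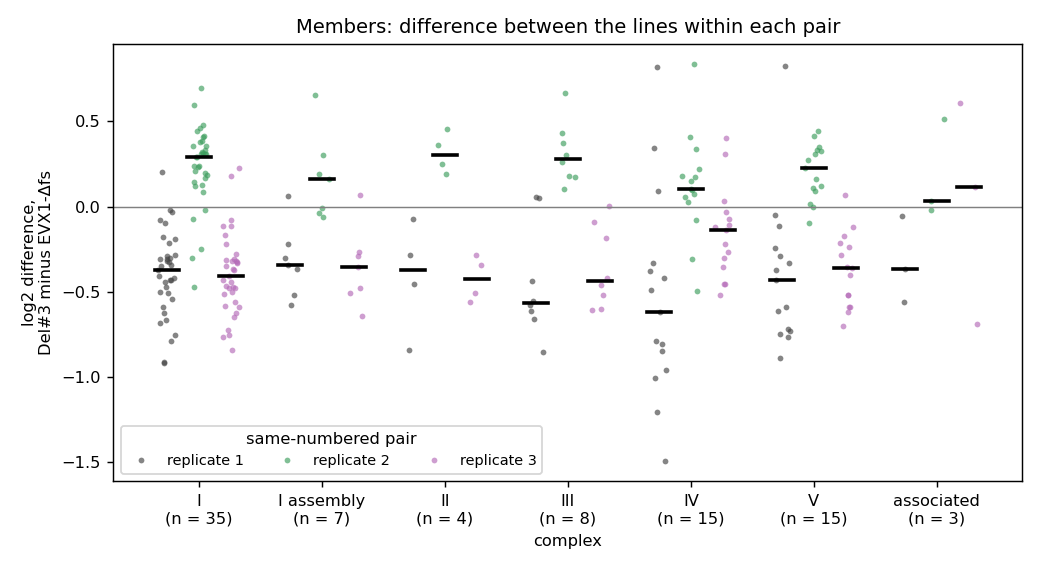
Log2 difference between the lines (Del#3 minus EVX1-Δfs, on log2 of normalized count + 1) within each same-numbered pair, by complex, with n the number of genes. Each point is a member and each black bar the median; in every complex the replicate 2 median is above 0 (0.23 over all members), while the replicate 1 median is below 0 throughout (-0.42 over all members).

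The median depended on single libraries. Without Del#3 replicate 1 the member median was 0.0059, without EVX1-Δfs replicate 3 it was -0.066, and without Del#3 replicate 2 it was -0.37. With both replicate 1 libraries left out it was -0.066, and in the blocked fit corrected for exon length and GC content it was -0.080. Only 10 members were lower in Del#3 in all 3 pairs (11% of all genes were), and 1 was higher in all 3, *Ndufa4l2* (12.1% of all genes were). All 3 Del#3 libraries lay below all 3 EVX1-Δfs libraries for 1 of 87 members, *Cox6c*, against 1.8% of all genes, and above them for 1 member, *Ndufa4l2*, against 1.71%.

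These genes varied more between differentiation days than between lines. Days held 72.3% of the variation of log2 values around each member's mean, lines 9.26% and the remainder 18.4%, compared with 60.5, 13.7 and 25.8% over all genes. In this split days have more degrees of freedom than lines, so a larger share for days is partly built in. An F-test over the replicate numbers in limma, with line in the model, called 10 of 87 members with Benjamini-Hochberg adjustment, against 4.24% of all genes (546 of 12891). Of these, 8 were lower in both replicate 1 libraries than in the other 4: *Ndufa3*, *Cox6b1*, *Atp5e*, *Ndufb6*, *Cox7a2*, *Ndufa1*, *Ndufaf3* and *Ndufaf6*. The other 2, *Atp5l* and *Ndufs1*, were higher in replicate 1.

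Of the 87 members, 68 had a higher mean in replicate 2 than in replicate 1. Both replicate 1 libraries lay below the other 4 for 39 of 87 members, against 22.7% of all genes, and above them for 7, against 22.2%. The member median of replicate 2 minus replicate 1 was 0.44, and of replicate 3 minus replicate 1 0.43, while the medians of all genes were -0.027 and -0.031. Leaving out single libraries gave member medians from 0.13 (without Del#3 replicate 2) to 0.71 (without EVX1-Δfs replicate 2) for the first, and from 0.25 (without Del#3 replicate 1) to 0.60 (without EVX1-Δfs replicate 1) for the second. The marker lists were compared between these days too. The F-test called none of the markers. The replicate 2 against 1 test called 1 higher in each of the pluripotent epiblast, definitive endoderm and heart and skeletal muscle lists, and none in the other lists. The replicate 2 minus 1 medians were 0.55 for pluripotent epiblast (6 of 6 higher), 0.42 for definitive endoderm (5 of 5), 1.00 for heart and skeletal muscle (4 of 5) and 0.069 for primitive streak and nascent mesoderm (6 of 8). They were -0.23 for visceral endoderm (2 of 4), -0.33 for haemangioblast (2 of 5) and -0.39 for fibroblast (1 of 3). In replicate 3 minus 1 the 7 medians, in the same order, were 0.051, 0.34, 0.90, -0.13, -1.15, -0.036 and -0.0014. The part of these markers in the result was not tested. In the pairwise test of replicate 2 against 1, 16 members were called higher in replicate 2, against 3.37% of all genes, and 2 lower, against 8.96% of all genes. Replicate 3 against 1 and replicate 3 against 2 gave 0 called genes in limma, members included. Dividing by total reads moved the median of all genes to -0.15 and -0.14, and the members' medians were then 0.32 in both contrasts.

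**Figure D3:**
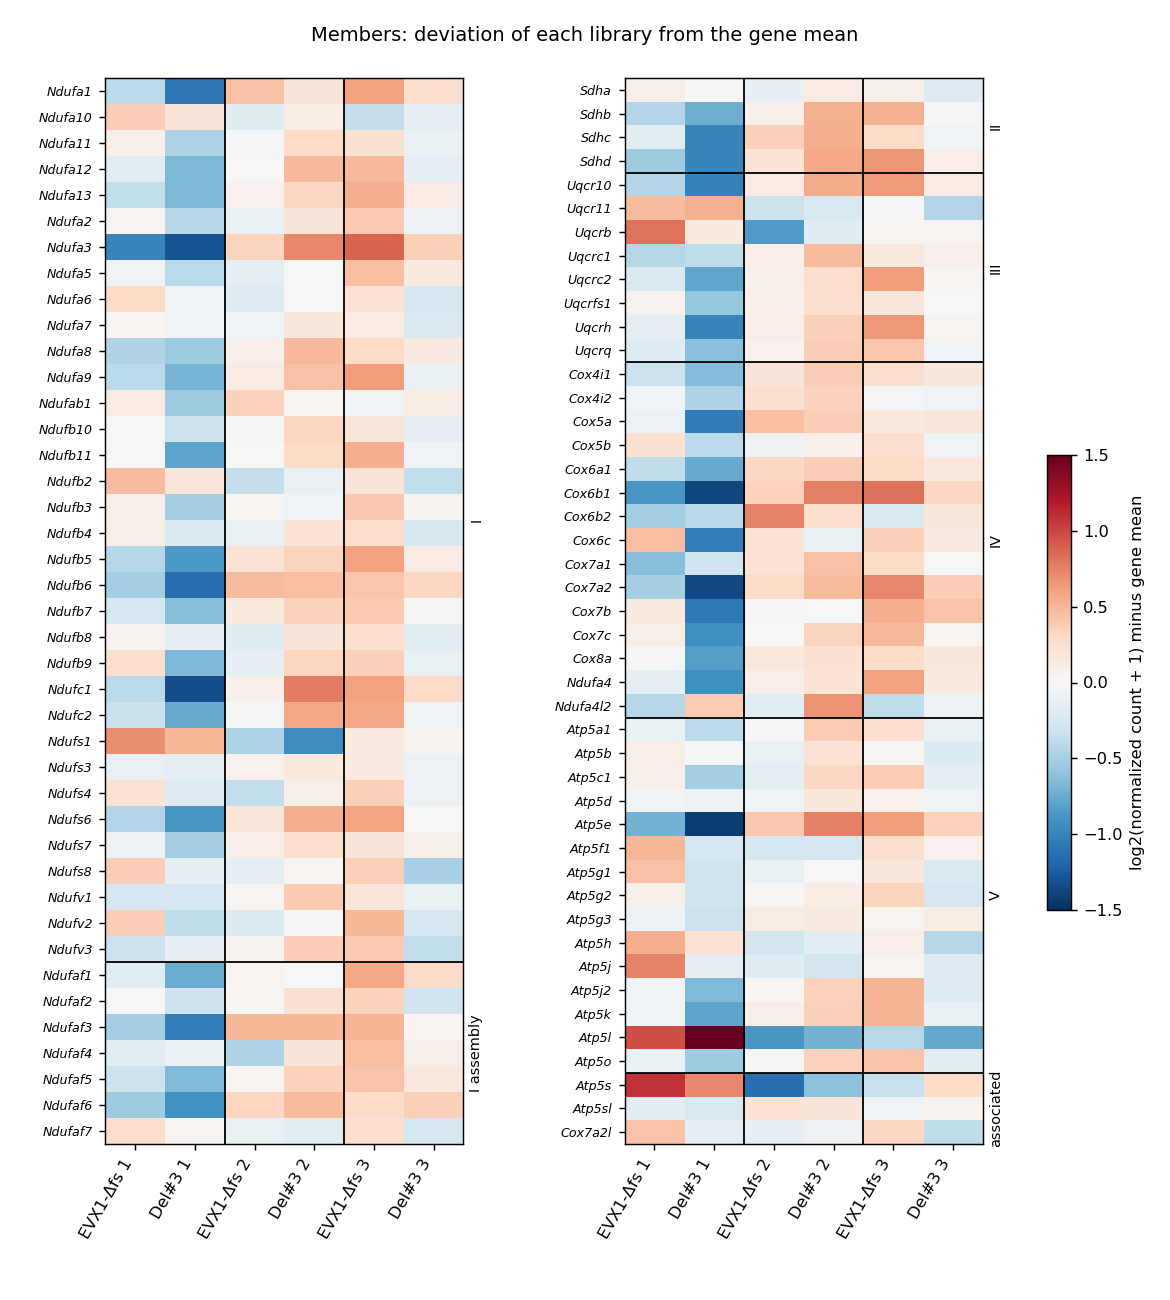
Deviation of each library from the gene's mean over the 6 libraries, on log2(normalized count + 1), for 86 of the 87 members in order of complex. Libraries stand in same-numbered pairs. The replicate 1 pair is mostly blue (lower), above all Del#3 replicate 1, with *Atp5l*, *Atp5s*, *Ndufs1* and *Uqcr11* in red.

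The number of members called between days depended on which libraries were in the fit. It was 2 without Del#3 replicate 1 (1.62% of all genes were called there) and 6 without EVX1-Δfs replicate 1 (1.5%). It was 25 without EVX1-Δfs replicate 3 (18.3%), 28 without Del#3 replicate 2 (11.1%), 31 without Del#3 replicate 3 (24.2%) and 39 without EVX1-Δfs replicate 2 (16.9%). *Atp5l* and *Ndufa3* were called in all 15 refits at the same threshold, *Atp5e* and *Cox6b1* in 14, *Cox7a2* in 13, *Ndufb6* and *Ndufs1* in 12, *Ndufa1* and *Ndufaf3* in 10 and *Ndufaf6* in 9.

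**Figure D4:**
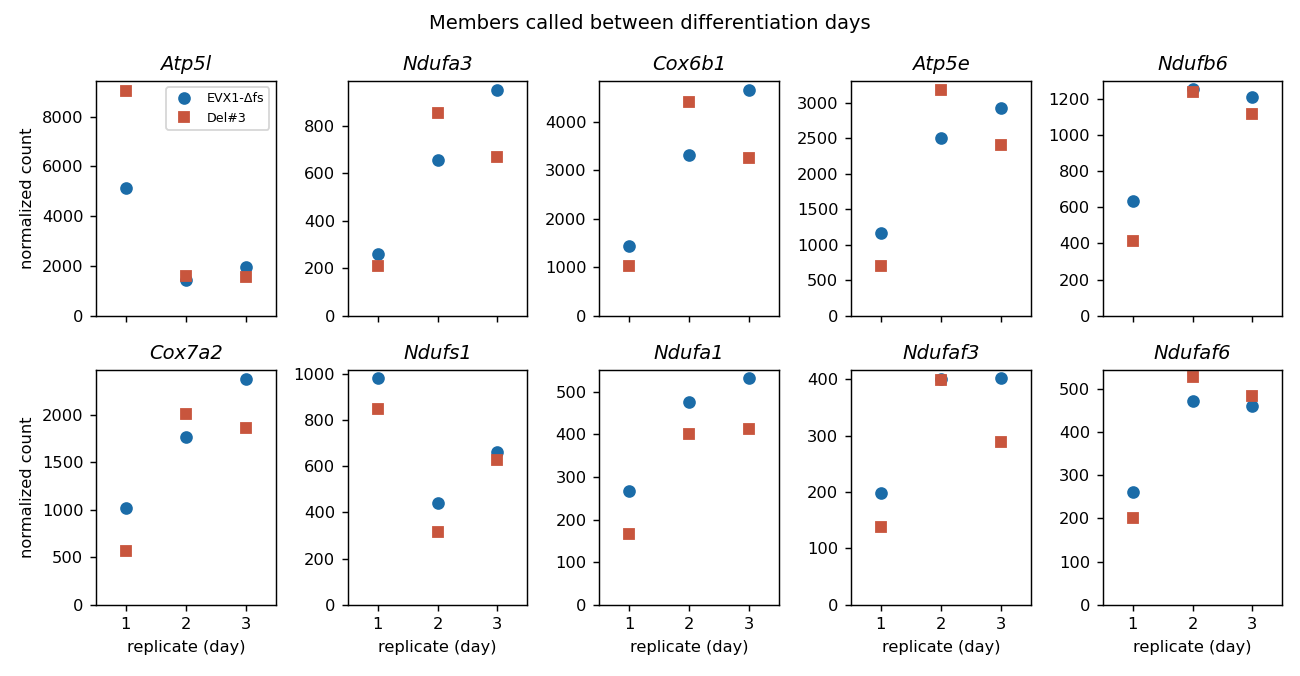
Normalized counts of the 10 members called between differentiation days (limma, adjusted p under 0.05), against replicate number, each number taken as a different day, in order of the F statistic. Circles are EVX1-Δfs and squares Del#3, 1 library each; 8 genes have both replicate 1 points at the bottom, and *Atp5l* and *Ndufs1* have them at the top.

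Short genes had lower median values in replicate 1. Across the 11992 tested genes with a coding transcript length, the length had a Spearman rho of -0.31 with the replicate 2 minus 1 difference, and across 84 members of -0.26; these are descriptions across genes that share the same 6 libraries. GC content also moved with this difference, with a rho of 0.49 across the genes and 0.26 across the members. Members were short, with a median coding transcript of 715 bases against 2394 over all genes. Genes of up to 500 bases had a median difference of 0.40 (108 genes) and the 9 members among them 0.81, and in the bin from 500 to 1000 bases the medians were 0.24 (1374 genes) and 0.34 (47 members). From 1000 to 1500 bases they were 0.21 (1512 genes) and 0.67 (15 members), and from 2000 to 3000 bases -0.013 (2932 genes) and -0.19 (6 members). After a correction for exon length and GC content the member median was 0.30 for replicate 2 and 0.27 for replicate 3, and 9 of 84 members were called, against 2.71% of all genes. Of these, 6 were among the 10 above, *Ndufs1*, *Ndufa1* and *Ndufaf3* were no longer called, *Ndufaf6* was not in this fit, and *Ndufc1*, *Sdhd* and *Uqcr11* were called in addition. Depth, which was highest in replicate 1, moved with the same days, and its part in the result was not tested.

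**Figure D5:**
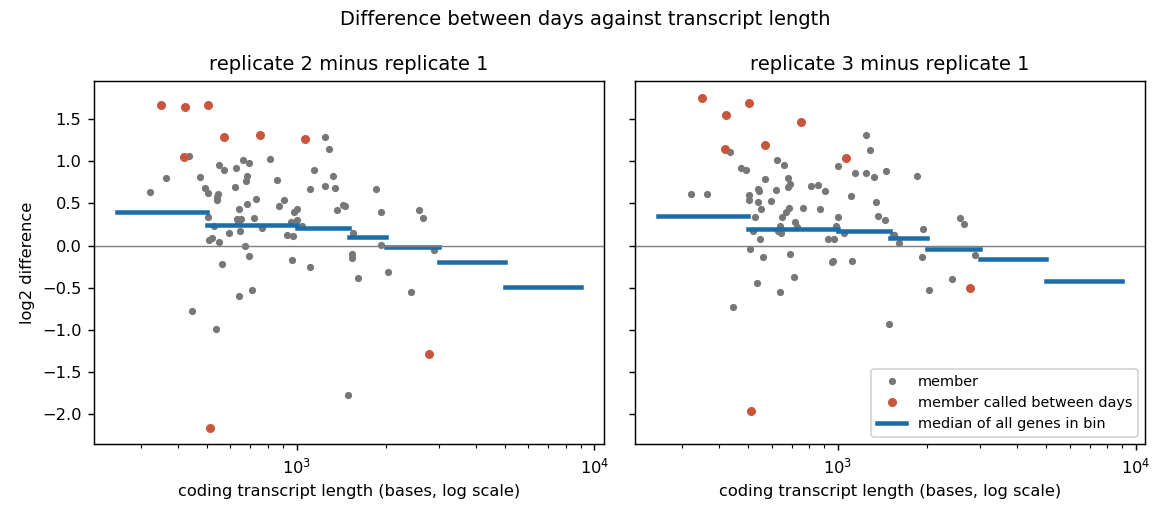
Log2 difference between days against coding transcript length (bases, log scale), replicate 2 minus 1 at left and replicate 3 minus 1 at right, for 84 members. Horizontal bars are medians of all genes tested in that length bin, from 0.40 for the shortest to -0.50 for the longest at left; red points are members called between days, and *Atp5l* is the red point near 500 bases below -1.5.

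Complex I, the NADH dehydrogenase, had 35 listed subunits with line differences from -0.44 to 0.12 and a median of -0.18. Without Del#3 replicate 1 this median was 0.0018, without EVX1-Δfs replicate 3 -0.032, without EVX1-Δfs replicate 1 -0.27 and without Del#3 replicate 2 -0.36. Its 7 nuclear core subunits carry the flavin and iron-sulfur clusters, and their median line difference was -0.14. *Ndufv2*, which holds an iron-sulfur cluster of the NADH-oxidising module, had 1154, 776 and 1257 normalized counts in EVX1-Δfs and 684, 884 and 744 in Del#3, a log2 difference of -0.44 (SE 0.26, limma adjusted p = 1.00), the largest of the complex. The lines overlapped, since Del#3 replicate 2 lay above EVX1-Δfs replicate 2. The flavin-binding *Ndufv1* differed by 0.021, and subunits of the arm that leads electrons to ubiquinone by -0.055 (*Ndufs3*), -0.14 (*Ndufs7*) and -0.39 (*Ndufs8*). None of these passed the test.

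*Ndufs1*, the largest iron-sulfur subunit of the complex, was the core subunit that changed between days. It had 983, 439 and 663 normalized counts in EVX1-Δfs and 850, 317 and 627 in Del#3, highest in replicate 1 and lowest in replicate 2 in both lines. Replicate 2 lay below replicate 1 by a log2 difference of -1.29 (SE 0.21, limma adjusted p = 0.0125). At 2790 bases its coding transcript is among the longest of the members. The other core subunits were not called, and 28 of all 35 subunits had positive replicate 2 minus 1 differences.

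Of the supernumerary subunits, which surround the core and have no redox group, *Ndufa3* changed most between days. It had 261, 655 and 952 normalized counts in EVX1-Δfs and 211, 856 and 667 in Del#3, so both replicate 1 libraries were under the other 4 by more than the spread between lines. Its log2 difference was 1.67 (SE 0.26, limma adjusted p = 0.0112), and 12847 of the 12891 genes had a smaller value. *Ndufb6*, a membrane-arm subunit, had 633, 1255 and 1211 normalized counts in EVX1-Δfs and 410, 1236 and 1117 in Del#3, a difference of 1.29 (SE 0.22, limma adjusted p = 0.0147). It shares 257 exon bases with *2010003O02Rik* on the opposite strand, which had the same difference, 1.29.

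*Ndufa1*, an X-linked membrane subunit needed for assembly, was called between days and had the largest line difference of the supernumerary subunits. EVX1-Δfs had 267, 477 and 533 normalized counts and Del#3 166, 401 and 413. Del#3 was lower in each pair, by -0.69, -0.25 and -0.37, but replicate 1 against 2 differed by more than the lines did (1.05, SE 0.23, limma adjusted p = 0.0256). The line difference was -0.43 (SE 0.40 without the block, limma adjusted p = 1.00; SE 0.18 with it, adjusted p = 0.992). Without Del#3 replicate 1 it was -0.0042, and without EVX1-Δfs replicate 1 -0.74.

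Per union of exons, the levels within complex I ran from *Ndufab1*, the mitochondrial acyl carrier protein (4.17 ± 0.71 in EVX1-Δfs and 3.56 ± 0.68 in Del#3, SD, n = 3), to *Ndufa13*, also known as GRIM-19 (235 ± 64 and 215 ± 57). *Ndufab1* has a long annotated exon union, and per median coding transcript its mean level was 27.0 instead of 3.87, above *Ndufs1* at 22.1. The next level down was that of *Ndufb11*, with 190 ± 34 and 155 ± 45, which overlapped *Ndufa13* within the SD. Per coding transcript *Ndufa7* (372), *Ndufb7* (288) and *Ndufb8* (288) were above *Ndufa13* (225). The 7 assembly factors build complex I and leave it. Per union of exons the 4 with a length ran from 9.50 for *Ndufaf4* to 26.5 for *Ndufaf3*, above the median of the genes tested, and per coding transcript *Ndufaf4* was the highest of them at 55.1. *Ndufaf3* had 198, 401 and 403 normalized counts in EVX1-Δfs and 138, 398 and 289 in Del#3, and *Ndufaf6* had 261, 471 and 461 and 202, 527 and 483. Both were lowest in replicate 1 of each line, with differences of 1.27 (SE 0.24) and 1.12 (SE 0.23) and limma adjusted p of 0.0176 and 0.0232.

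Complex II, succinate dehydrogenase, is the one complex with all its subunits encoded in the nucleus, and the 4 genes differed between lines by -0.036 (*Sdha*), -0.11 (*Sdhb*), -0.33 (*Sdhc*) and -0.22 (*Sdhd*), none of them called. Their median was -0.17, and it ran from -0.48 to 0.15 over the alternative fits, which include leaving out single libraries. The flavoprotein gene *Sdha* was the steadiest: 2259, 1944 and 2247 normalized counts in EVX1-Δfs and 2144, 2310 and 1849 in Del#3. The iron-sulfur subunit *Sdhb* had 2012, 2898 and 3958 and 1651, 3975 and 2781. The membrane anchor *Sdhd* had 1740, 2904 and 3976 and 1270, 3726 and 2700. For *Sdhb*, *Sdhc* and *Sdhd*, but not *Sdha*, both replicate 1 libraries were the lowest. In the replicate 2 against 1 test *Sdhd* (1.15, SE 0.26, limma adjusted p = 0.0295) and *Sdhc* (1.03, SE 0.27, adjusted p = 0.0426) were called, although neither passed the F-test. *Sdhd* had the highest level (206 ± 72 in EVX1-Δfs and 186 ± 79 in Del#3) and *Sdhc* the lowest (18.8 ± 3.1 and 16.2 ± 6.9), both per union of exons. Per coding transcript *Sdhb* was the highest (234, against 196 for *Sdhd*), and *Sdhc* at 69.7 stood next to *Sdha* at 69.1.

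Complex III, the cytochrome bc1 complex, had line differences from -0.40 to 0.11 over 8 genes, and none was called. The core proteins *Uqcrc1* and *Uqcrc2* had line differences of opposite sign: *Uqcrc1* had 3384, 4870 and 5096 normalized counts in EVX1-Δfs and 3508, 6303 and 4779 in Del#3, and *Uqcrc2* had 2497, 3068 and 4502 and 1698, 3480 and 2968. Their line differences were 0.11 (SE 0.28) and -0.33 (SE 0.32), within the spread between replicates. The hinge protein gene *Uqcrh* had the lowest value, -0.40 (SE 0.36), with pair differences of -0.86, 0.26 and -0.61. The Rieske iron-sulfur protein gene *Uqcrfs1* had -0.21 (SE 0.26).

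Between days, *Uqcr10* had the largest F of complex III, with 1165, 1716 and 2463 normalized counts in EVX1-Δfs and 779, 2319 and 1719 in Del#3. It did not pass the F-test (limma adjusted p = 0.0712) but was higher in replicate 2 than 1 (1.06, SE 0.27, adjusted p = 0.0415). *Uqcr11* had the opposite order, with 2074, 1193 and 1476 in EVX1-Δfs and 2157, 1280 and 1103 in Del#3, both replicate 1 libraries above the other 4. *Uqcrb* also had its highest libraries in replicate 1, at 924 and 583, and neither was called (limma adjusted p of the F-test 0.0948 and 0.147). The complex III levels ran from *Uqcrb* and *Uqcrfs1*, both 60.4 on average, to *Uqcr10* at 269 and *Uqcrc1* at 263. Per coding transcript *Uqcrh*, at 423, was the highest.

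Complex IV, cytochrome c oxidase, held the extreme line differences of the members. *Cox6c*, a small membrane subunit, had 831, 695 and 775 normalized counts in EVX1-Δfs and 294, 561 and 664 in Del#3. Every Del#3 library was below every EVX1-Δfs library, with replicate 1 farthest. The log2 difference was -0.68 (SE 0.31, 95% interval -1.37 to 0.015, limma adjusted p = 1.00; two-sided exact permutation p = 0.1, the smallest that 3 against 3 allows). Without Del#3 replicate 1 it was -0.33, and without both replicate 1 libraries -0.27. *Cox6c* shares 250 exon bases with *Vps13b* on the opposite strand, whose line difference was 0.77.

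*Ndufa4l2*, a hypoxia-induced relative of *Ndufa4*, had the most positive line difference, with 33.0, 39.8 and 34.3 normalized counts in EVX1-Δfs and 59.0, 72.0 and 42.7 in Del#3. The groups did not overlap, and Del#3 replicate 3 came close to EVX1-Δfs replicate 2. The log2 difference was 0.66 (SE 0.36, 95% interval -0.14 to 1.45, limma adjusted p = 1.00; exact permutation p = 0.1). *Cox7b* had 1246, 1102 and 1646 normalized counts in EVX1-Δfs and 539, 1121 and 1513 in Del#3, a difference of -0.43 (SE 0.36) that came from replicate 1, since the pair differences were -1.21, 0.025 and -0.12, and it was -0.011 without Del#3 replicate 1. The core-associated subunits *Cox4i1*, *Cox5a* and *Cox5b* differed by -0.076, -0.34 and -0.26. The *Cox5a* value also came from replicate 1, with pair differences of -0.96, -0.082 and 0.036.

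Of complex IV, *Cox6b1* and *Cox7a2* were called between days. *Cox6b1*, on the intermembrane side of the enzyme, had 1433, 3327 and 4666 normalized counts in EVX1-Δfs and 1019, 4411 and 3250 in Del#3, and the replicate 2 minus 1 difference was 1.66 (SE 0.27, limma adjusted p = 0.0120). *Cox7a2*, the widely expressed isoform of subunit VIIa, had 1019, 1771 and 2381 and 566, 2009 and 1859 (1.31, SE 0.26, adjusted p = 0.0202). In both genes the replicate 1 libraries stood apart at the bottom and the lines overlapped. *Cox5a* and *Cox6a1* were higher in replicate 2 than 1 as well (0.99 and 0.90, limma adjusted p = 0.0487 and 0.0315), and all 15 genes of the complex had a positive value.

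The tissue-restricted isoforms of complex IV were minor in these EBs. *Cox4i2*, the isoform of lung and of low oxygen, made 1.32 ± 0.24% of the *Cox4i* family in EVX1-Δfs and 1.28 ± 0.18% in Del#3 (share of level per length, SD, n = 3). *Ndufa4l2* made 0.71 ± 0.18% of its family with *Ndufa4* in EVX1-Δfs and 1.56 ± 0.80% in Del#3. *Cox6b2*, known from testis, made 6.57 ± 2.93% and 7.42 ± 3.77%. These small shares differed between the lines by less than their spread, except that each *Ndufa4l2* share in Del#3 (2.44, 1.38 and 0.86%) was above the highest of EVX1-Δfs (0.82%).

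*Cox7a1*, the heart and skeletal muscle isoform of subunit VIIa, made 6.94 ± 1.42% of the *Cox7a* family in EVX1-Δfs and 9.15 ± 1.77% in Del#3. *Cox7a2* made 45.5, 64.4 and 65.6% in EVX1-Δfs and 38.5, 66.0 and 69.2% in Del#3. The remainder was *Cox7a2l*, which encodes a factor that joins complexes III and IV in supercomplexes, with 48.8, 27.1 and 27.7% and 50.5, 25.1 and 23.3%. In replicate 1 of both lines *Cox7a2l* was thus the larger share, and in the other 4 libraries *Cox7a2* was. *Cox6a2*, *Cox7b2*, *Cox8b* and *Cox8c* were not analysed here.

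Complex V, the ATP synthase, held the genes with the most reads of the members and the largest single change between days. *Atp5b*, the catalytic β subunit, had 20068, 17315 and 18901 normalized counts in EVX1-Δfs and 18514, 21758 and 16306 in Del#3, with the lines overlapping. The α subunit gene *Atp5a1* had 9099, 9580 and 11659 and 7441, 12760 and 9068. Their line differences were 0.000082 and -0.080, and those of the other F1 subunits -0.22 (*Atp5c1*, γ), 0.020 (*Atp5d*, δ) and -0.22 (*Atp5e*, ε). The 4 peripheral stalk genes, which hold F1 still against the rotor, ran from -0.41 to -0.23, and *Atp5j* was lowest (1198, 629 and 735 in EVX1-Δfs and 646, 588 and 623 in Del#3; -0.41, SE 0.27, limma adjusted p = 1.00). Without EVX1-Δfs replicate 1 the *Atp5j* difference was -0.14. *Atp5j* shares 397 exon bases with *Gabpa* on the opposite strand.

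*Atp5l*, subunit g of the membrane part, where ATP synthases form dimers, had the opposite direction to the 8 members lowest in replicate 1. It had 5118, 1434 and 1967 normalized counts in EVX1-Δfs and 9053, 1607 and 1537 in Del#3. Both replicate 1 libraries were above the other 4, and Del#3 replicate 1 was the highest. Replicate 2 minus 1 was -2.16 (SE 0.28, limma adjusted p = 0.00875), lower than in all but 106 of 12891 genes, and replicate 3 minus 1 was -1.97. Its coding transcript of 511 bases is short, a length at which the medians of genes and members were positive. No other annotated gene overlaps its exons. *Atp5k* and *Atp5j2*, subunits e and f beside it in the membrane, had positive differences of 0.64 and 0.54.

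*Atp5e* was the other complex V gene called between days. The values were 1160, 2505 and 2927 normalized counts in EVX1-Δfs and 705, 3186 and 2406 in Del#3, with replicate 1 lowest in both lines (1.64, SE 0.27, limma adjusted p = 0.0123). The F1 partner genes were steadier, with replicate 2 minus 1 differences of 0.43 for *Atp5a1*, 0.010 for *Atp5b*, 0.31 for *Atp5c1* and 0.13 for *Atp5d*, none of them called.

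The rotor ring of complex V is built from a protein encoded by *Atp5g1*, *Atp5g2* and *Atp5g3*, whose products are identical once the import signal is removed. *Atp5g3* had the most reads, with 5992, 6868 and 6524 normalized counts in EVX1-Δfs and 5061, 6933 and 6850 in Del#3. *Atp5g1* had 3250, 2237 and 2708 and 1956, 2408 and 2049, and *Atp5g2* 2348, 2262 and 2798 and 1812, 2409 and 1859. Shares per exon union put *Atp5g2* first (51.9 ± 2.9% in EVX1-Δfs and 48.6 ± 3.4% in Del#3, SD, n = 3), but per coding transcript *Atp5g3* was first, with 53.7 ± 4.5% and 58.3 ± 3.3%. The order of the ring genes thus depended on the length used, and the lines overlapped for each of them on both scales. The same holds for the top of the complex: per exon union *Atp5l* had the highest mean (524 ± 385 and 794 ± 886), and per coding transcript *Atp5b* did (925 on average). The *Atp5l* mean rested on the replicate 1 libraries, at 967 and 1817, while its lowest libraries, at 265 and 278, were under the lowest of *Atp5b* per exon union, at 386 and 368.

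The 3 associated factors did not move together. *Cox7a2l* had 1663, 1136 and 1531 normalized counts in EVX1-Δfs and 1128, 1160 and 951 in Del#3 (-0.41, SE 0.24, limma adjusted p = 1.00). *Atp5sl*, also called Dmac2 and known as a complex I assembly protein, had 628, 815 and 678 in EVX1-Δfs and 605, 805 and 735 in Del#3, both replicate 1 libraries below the other 4 (replicate 2 minus 1 0.39, not called). *Atp5s* was the least expressed member, with 36.3, 7.03 and 13.0 in EVX1-Δfs and 27.9, 10.5 and 20.3 in Del#3, and 6 reads in its lowest library; its replicate 1 libraries were the highest, and it was not called.

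Promoter sequence was compared because nuclear respiratory genes are known to share sites for NRF1, GABPA (also called NRF2) and YY1. RefSeq windows of 300 bases on GRCm38.p6, from 250 before to 50 after the annotated start, were found for 73 members, 3 of them through a newer symbol. They were found for 27025 genes in all, more than the 12891 tested, and shares of all genes below are over these 27025. Exact matches on both strands to GCATGCGC (NRF1), CCGGAAGT (GABPA) or AAGATGGCG (YY1) were in a window of 24 of 73 members (32.9%) and of 8.47% of all genes. Singly the shares were 16.4% against 3.05% for NRF1, 6.85% against 4.31% for GABPA and 11.0% against 1.64% for YY1. A match is a run of letters and not an occupied site.

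For each complex, the bases before the start are shown for the member with the highest level among those with a whole match there, with the matched letters in capitals, 5′ to 3′ on the gene's strand (*Ndufa6* chr15:82354292-82354541, minus strand; *Sdhb* chr4:140961021-140961270, plus; *Uqcr11* chr10:80406822-80407071, minus; *Cox6a1* chr5:115348959-115349208, minus; *Atp5l* chr9:44920743-44920992, minus). In *Cox6a1* the NRF1 letters match on both strands and overlap. In *Uqcr11* a GABPA match is followed by the first 4 letters of an NRF1 match that runs past the start.
Ndufa6: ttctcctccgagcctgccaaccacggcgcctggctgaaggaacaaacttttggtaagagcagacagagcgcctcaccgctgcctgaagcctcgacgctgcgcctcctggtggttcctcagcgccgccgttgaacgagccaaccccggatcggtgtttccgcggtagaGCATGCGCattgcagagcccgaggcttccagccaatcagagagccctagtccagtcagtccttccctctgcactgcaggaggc
Sdhb: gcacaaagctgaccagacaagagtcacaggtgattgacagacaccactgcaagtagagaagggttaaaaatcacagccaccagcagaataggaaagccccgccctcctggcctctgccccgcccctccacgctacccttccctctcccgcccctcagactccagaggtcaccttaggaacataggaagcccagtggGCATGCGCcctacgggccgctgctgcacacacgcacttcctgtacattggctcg
Uqcr11: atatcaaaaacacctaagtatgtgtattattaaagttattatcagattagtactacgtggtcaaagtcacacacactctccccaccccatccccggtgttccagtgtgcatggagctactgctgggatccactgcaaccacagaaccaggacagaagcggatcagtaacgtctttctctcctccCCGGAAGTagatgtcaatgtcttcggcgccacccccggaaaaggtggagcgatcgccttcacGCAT
Cox6a1: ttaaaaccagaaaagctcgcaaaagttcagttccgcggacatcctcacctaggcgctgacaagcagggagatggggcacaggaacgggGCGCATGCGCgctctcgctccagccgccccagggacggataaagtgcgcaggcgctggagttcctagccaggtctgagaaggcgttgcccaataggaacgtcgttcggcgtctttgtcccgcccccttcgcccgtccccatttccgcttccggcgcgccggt
Atp5l: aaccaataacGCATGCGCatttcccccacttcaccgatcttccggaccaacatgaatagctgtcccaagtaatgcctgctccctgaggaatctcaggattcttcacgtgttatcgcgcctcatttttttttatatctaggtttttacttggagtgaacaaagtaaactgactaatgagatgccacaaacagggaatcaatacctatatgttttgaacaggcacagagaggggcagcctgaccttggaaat

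The members that were lowest in replicate 1 by the largest F are shown beside them, since *Atp5l* moved the other way (*Ndufa3* chr7:3617123-3617372, plus strand; *Cox6b1* chr7:30626115-30626364, minus; *Atp5e* chr2:174464102-174464351, minus). None of these 3 windows held any of the motifs, which says only that these letters are not in this window.
Ndufa3: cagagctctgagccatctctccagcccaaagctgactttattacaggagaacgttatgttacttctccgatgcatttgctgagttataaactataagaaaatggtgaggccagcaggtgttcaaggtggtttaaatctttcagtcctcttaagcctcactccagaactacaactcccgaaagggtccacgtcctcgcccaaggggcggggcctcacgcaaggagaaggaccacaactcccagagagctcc
Cox6b1: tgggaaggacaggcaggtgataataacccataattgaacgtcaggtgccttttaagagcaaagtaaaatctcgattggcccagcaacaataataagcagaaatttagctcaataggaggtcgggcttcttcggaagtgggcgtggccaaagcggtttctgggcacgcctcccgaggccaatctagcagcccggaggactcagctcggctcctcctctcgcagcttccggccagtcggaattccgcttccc
Atp5e: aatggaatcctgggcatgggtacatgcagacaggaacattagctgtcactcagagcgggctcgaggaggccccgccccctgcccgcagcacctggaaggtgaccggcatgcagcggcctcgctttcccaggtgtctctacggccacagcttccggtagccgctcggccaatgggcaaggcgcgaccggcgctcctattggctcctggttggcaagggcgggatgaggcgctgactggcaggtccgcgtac

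Of the 10 members called between days, *Atp5l* was the only one whose window held a match, an NRF1 match 240 bases before the start, among the 8 that had a window. *Ndufaf6* and *Ndufs1* had none to search. In mm9, the build of the files, *Atp5l* lies on chromosome 9 from 44721333 to 44728825, *Ndufa3* on chromosome 7 from 3568975 to 3571765, *Cox6b1* on chromosome 7 from 31401993 to 31411170 and *Atp5e* on chromosome 2 from 174286573 to 174289606.

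Genes of the pathway outside the naming rule were also compared. Of 50 assembly factors and partners, 44 were listed and 42 tested, with a median line difference of -0.13 and 0 called by limma (1 under 0.05 before adjustment, *Usmg5*). *Usmg5* encodes an ATP synthase membrane protein and had the lowest value (-0.69, limma adjusted p = 1.00). Between days 1 of the 42 was called, against 4.24% of all genes. This was *Coa6*, a cytochrome c oxidase assembly factor, with 166, 375 and 536 normalized counts in EVX1-Δfs and 116, 398 and 413 in Del#3. Replicate 1 was lowest in both lines (1.47, adjusted p of the F-test 0.0238).

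Of 16 regulators of respiratory genes, 15 were listed and tested. Between lines limma called 0, with 0 under 0.05 before adjustment and a median of 0.12. Between days 3 were called (4.24% of all genes were), all highest in replicate 1. The median of the 15 for replicate 2 minus 1 was -0.51, 3 of them were above 0, and a difference from the members was not tested. Long genes in general had negative medians, -0.19 for coding transcripts from 3000 to 5000 bases and -0.50 above 5000. The part of length in the values of the regulators was not tested. *Gabpa*, the DNA-binding subunit of a factor for respiratory promoters, had 397, 99.6 and 156 normalized counts in EVX1-Δfs and 551, 114 and 223 in Del#3 (-2.12, limma adjusted p of the F-test 0.0225). *Tfam*, which packages mitochondrial DNA, had 762, 292 and 422 and 602, 297 and 422 (-1.20, adjusted p = 0.0457), and *Hif1a*, the oxygen-regulated factor, 546, 109 and 207 and 456, 209 and 289 (-1.72, adjusted p = 0.0428). *Nrf1*, with a difference of 0.67, was not called. Whether these values bear on the members was not tested.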

How the data were processed

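According to the study's methods and the submitters' processing notes, Ion Proton reads of poly(A) RNA were aligned by the authors to the mm9 genome (TopHat2, followed by TMAP), assigned to genes by HTSeq and analysed in DESeq2; tool versions are not given in the sources used here. The values the authors deposited are normalized counts, a signal per gene and library in which each count was divided by 1 size factor per library. Each library's smallest step gave whole reads for 100% of values (tolerance 0.001). Depth was 9024579 to 15699124 reads per library, and the lowest member had 6 reads in its lowest library. Samples were grouped by their titles into EVX1-Δfs and Del#3, with 3 libraries each.

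Lines were compared with limma (3.58.1, in R 4.3.3; eBayes with trend) on values log2-transformed after a pseudocount of 1, two-sided, with no covariate, and days with line and replicate number as terms, as a moderated F-test and pairwise contrasts. Genes were kept by filterByExpr (edgeR 4.0.16, minimum count 10), and p-values were adjusted over 12891 genes by Benjamini-Hochberg at 0.05. The line and day fits were tested on simulated counts, the line fit with the block only in limma. DESeq2 (1.42.0), edgeR's quasi-likelihood test, other scalings, filters and pseudocounts, each library left out and a loess correction for length and GC content were alternatives. Replicate numbers were taken to pair the samples, since the labels' design text gives a day of its own to every pair differentiated in parallel. Deviations of same-numbered libraries from their line's mean correlated at 0.74, 0.32 and -0.053 across all genes and at 0.87, 0.72 and 0.49 across members. The numbers of replicates 2 and 3 are not separated by this check: EVX1-Δfs replicate 3 correlated more with Del#3 replicate 2, at 0.42 and 0.69.

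Lengths and mm9 coordinates came from GENCODE vM1, which held 84 of 87 members by symbol (*Ndufaf5*, *Ndufaf6* and *Ndufaf7* did not match). Levels used the union of exons. The median protein-coding transcript as length, and leaving out both replicate 1 libraries, were alternatives chosen after seeing the data. The replicates are separate differentiations of each line, so p-values of the line test without the block are set against the spread between differentiations. In the day tests and the blocked line fit the residual is what line and replicate number leave. No line was repeated within a day, so those p-values do not measure that spread. Exons of 18 of the 84 members share bases with another gene, 3 of them on the same strand; reads shared with such genes or with processed pseudogenes are uncertain. Members were named if called between lines, highest or lowest in level in their complex, among the 6 largest line differences, largest in F in their complex, paralogues or core subunits; other named genes were chosen after their values were seen. The values of 1 member are not reported here, although it is in the counts. The members and lists were chosen with earlier results of these data known.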

Additional observations from a re-analysis of the deposited data

How the results depend on the processing

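No member was called between lines under any alternative run (0 of the 84 to 87 members tested in each). Over all genes, DESeq2 with the replicate block called 9 genes instead of 2 and the limma block 3, and leaving out single libraries left 2. The median line difference of the members ranged from -0.37 to 0.0059 on leaving out single libraries and was -0.080 with the block and a correction for exon length and GC content, where the block alone gave -0.20. For the assembly factors, leaving out single libraries gave medians of -0.31 to 0.097, and for the associated factors of -0.25 to -0.0099. Calls between days over all genes, 546, became 1293 with DESeq2, 347 with TMM factors, 317 with total reads, 331 with the replicate block and the length and GC correction and 0 at an adjusted p under 0.01, and 197 to 3175 on leaving out single libraries; members, 10, became 20 with DESeq2, 5 with total reads, 0 at 0.01 and 2 to 39. The member median of replicate 3 minus 1 was 0.27 after the correction, 0.32 with total reads and 0.25 to 0.60 on leaving out single libraries. The cause of these shifts was not tested. Isoform shares without division by length were 98.5% for *Cox4i1*, 1.51% for *Cox4i2*, 3.43% for *Cox7a1*, 22.0% for *Atp5g1*, 20.3% for *Atp5g2*, 57.7% for *Atp5g3*, 97.8% for *Ndufa4* and 2.18% for *Ndufa4l2*, and per coding transcript 22.2, 21.8 and 56.0% for *Atp5g1*, *Atp5g2* and *Atp5g3*, because annotated lengths differ.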
